A study of Caenorhabditis elegans with 4 samples.

Results

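The genes described here encode Patched-related proteins and other proteins with a sterol-sensing domain, a set of membrane-spanning segments found in proteins that bind or move sterols. They were taken by the symbol of the probe annotation: every gene named ptr, ptc, ptd or ncr with a number, plus che-14, daf-6 and scp-1. This gave 28 genes with 29 probes, out of 14943 genes with a probe of a single symbol. Expression was measured in adults of the nematode Caenorhabditis elegans, labelled wild type, on 4 two-colour microarrays that each set a separate adult RNA preparation (prep 1 to prep 4) against a wild-type mixed reference RNA. The labels give no strain name, treatment, sex or adult age, and leave the make-up of the mixed reference open. There is 1 group of arrays, and the reference RNA is the only background against which the adults were measured.

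In flies and vertebrates, Patched is the receptor of Hedgehog, a secreted signal that carries a sterol, and Dispatched lets signalling cells release it. Caenorhabditis elegans has no Hedgehog of its own and no Smoothened, the protein that Patched restrains in other animals, but it has many hedgehog-related secreted proteins and a large family of Patched-related (PTR) proteins. Many PTR proteins act at the apical face of the epidermis and of other epithelia, and knockdown of several of them disturbs moulting, the shedding of the cuticle between larval stages. The Niemann-Pick C1 (NPC1) homologues move cholesterol inside cells, and SCAP escorts the lipid-gene activator SREBP. The worm cannot make sterols and takes them from its food.

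Values are log2 ratios of the array's channels. The files do not state the numerator, and a positive ratio is read as likely higher in adults, because the adult RNA is in channel 2 of every array. The channels were never swapped, so for a single gene an effect of the channel and an effect of adulthood cannot be told apart. A ratio compares a gene with itself in the reference RNA, so the order of ratios below is no order of expression levels. A gene was called when limma's moderated test against a ratio of 0 gave an adjusted p under 0.05 after Benjamini-Hochberg adjustment over 14935 genes. Means carry the SD over n = 4 preps unless another n is given. Whether the preps are separate cultures is not in the labels, so the p-values cover the spread between preps and no more.

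The arrays had values for 21243 to 21501 probes each, and correlated with one another over all probes with Pearson's r between 0.659 and 0.755. Preps 3 and 4 share a date in their array titles. As a check of the adult label, col-19 and col-7, collagen genes of the adult cuticle, had mean log2 ratios of 2.88 ± 0.45 and 2.74 ± 0.88, while the other 5 adult stage markers with a value were not called. Germline markers were called positive in 9 of 9 cases and major sperm protein genes in 29 of 30, intestinal markers in 3 of 5. Epidermal markers were called negative in 5 of 6 cases, neuronal markers in 5 of 6, and muscle markers in 1 of 4. Of all genes tested, 23.2% were called positive and 21.2% negative. The lowest epidermal mean was that of the larval collagen gene dpy-7, at -3.03, where stage and tissue cannot be told apart. Those of elt-3, elt-1 and lin-26 were -1.01, -0.75 and -0.19. In bulk RNA, fewer cells of a type and less RNA per cell cannot be told apart.

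Most of the genes had lower ratios in adults. Of the 28 genes, 16 (57.1%) were called negative, where 21.2% of all genes tested were. A single gene, ptr-2, was called positive (3.57% of the 28 genes), where 23.2% of all genes tested were. The remaining 11 were not called. The median of the mean log2 ratios was -0.66 over the 28 genes and 0.06 over all genes tested. The median over the 28 genes lay between -0.68 on prep 1 and -0.51 on prep 3, and that over all genes between 0.00 and 0.09. On every array 22 to 24 of the 28 genes had a ratio below 0. A ratio below 0 on all 4 arrays was found for 19 of the 27 genes with 4 values, and 27.3% of all genes with 4 values had that pattern.

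**Figure D1:**
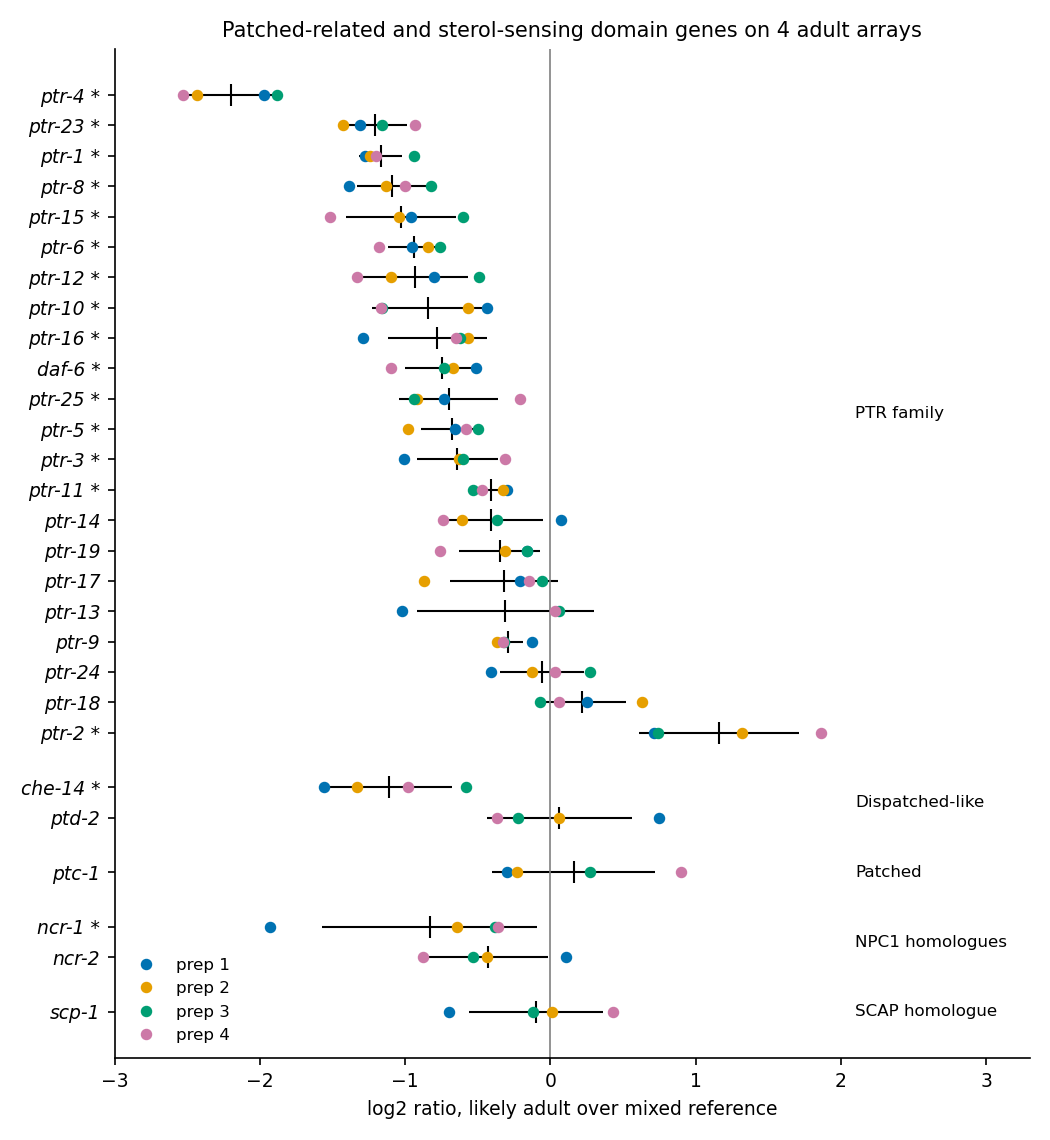
Log2 ratio of each gene on each of the 4 adult arrays (coloured points), with the mean (tick) and SD over preps (bar), grouped by protein family; an asterisk marks genes called by limma at an adjusted p under 0.05. The points of ptr-4 lie between -2.53 and -1.88, below those of every other gene except for prep 1 of ncr-1 (-1.93), and the points of ptr-2 lie between 0.71 and 1.86.

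The PTR family, in which daf-6 is included, held 22 of the genes. Of these 14 were called negative (63.6%, against 21.2% of all genes tested) and 1 positive (4.55%, against 23.2%). The lowest ratios were those of ptr-4, which is needed for moulting and for shaping the apical matrix that precedes a new cuticle. Its log2 ratio was -1.97, -2.43, -1.88 and -2.53 on preps 1 to 4. All preps were thus far below 0, with a mean of -2.20 ± 0.33, 4.61-fold lower (limma adjusted p = 5.5e-05). Among all genes tested, 1.11% had a lower mean. No value of ptr-4 overlapped with those of ptr-23, the gene next in order, whose values lay between -1.43 and -0.93.

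After ptr-4, a closely spaced set of PTR genes had means near -1. The moulting gene ptr-23 had log2 ratios of -1.31, -1.43, -1.16 and -0.93 on preps 1 to 4 and a mean of -1.21 ± 0.22 (limma adjusted p = 0.00046). For ptr-1 the values were -1.28, -1.24, -0.94 and -1.20, with a mean of -1.17 ± 0.15 (adjusted p = 0.00042). On preps 1 to 4, ptr-8 had -1.39, -1.13, -0.82 and -1.0, and its mean was -1.09 ± 0.24 (adjusted p = 0.00085). No value of these genes came as close to 0 as the lowest value of ptr-11, -0.53, the weakest negative call of the family.

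The values of ptr-15 spread more, with -0.96, -1.04, -0.60 and -1.52 on preps 1 to 4 and a mean of -1.03 ± 0.38 (limma adjusted p = 0.0022). A tighter set of values was found for ptr-6, which had -0.95, -0.84, -0.76 and -1.18 and a mean of -0.94 ± 0.18 (adjusted p = 0.0013). The ratios of ptr-12 were -0.80, -1.10, -0.49 and -1.33, with a mean of -0.93 ± 0.36 (adjusted p = 0.0032). In ptr-15 and ptr-12 the lowest value was that of prep 4 and the highest that of prep 3, the array which shares its title date. Other genes went the other way. In ptr-10 both of these preps lay below preps 1 and 2, and in ptc-1 both lay above them.

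Glial members of the family were also lower. The promoter of ptr-10 is widely used to mark glia, the support cells of the worm's sense organs, and DAF-6 limits the width of the channel that glia form around sensory cilia. The log2 ratio of ptr-10 was -0.44, -0.57, -1.16 and -1.17 on preps 1 to 4, so the preps fell into a higher and a lower pair. Its mean was -0.84 ± 0.39 (limma adjusted p = 0.0059). For daf-6 the values were -0.51, -0.67, -0.73 and -1.10, with a mean of -0.75 ± 0.25, 1.68-fold lower (adjusted p = 0.0048).

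A further 5 PTR genes were called negative, with mean log2 ratios between -0.78 and -0.41. In ptr-16, prep 1 stood apart at -1.29 while the other preps lay between -0.65 and -0.57, and the mean was -0.78 ± 0.34 (limma adjusted p = 0.0060), or -0.62 without prep 1, where the call held. The gene ptr-25 had -0.73, -0.92 and -0.94 on preps 1 to 3 but -0.21 on prep 4 (mean -0.70 ± 0.34, adjusted p = 0.010). Those of ptr-5 lay between -0.98 and -0.50 (mean -0.68 ± 0.21, adjusted p = 0.0063). For ptr-3 the range was -1.01 to -0.31 (mean -0.64 ± 0.28, adjusted p = 0.012). The least firm of these calls was ptr-11, which had a narrow range of -0.53 to -0.30 and a mean of -0.41 ± 0.11 (adjusted p = 0.039). That call was lost whichever prep was left out, with adjusted p between 0.066 and 0.11.

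In the opposite direction, ptr-2 had log2 ratios of 0.71, 1.32, 0.74 and 1.86 on preps 1 to 4. Every prep was above 0, and none of its values overlapped with those of ptr-18, the next gene in order, whose highest value was 0.63. The mean of ptr-2 was 1.16 ± 0.55, 2.23-fold higher (limma adjusted p = 0.0031), and 95.7% of all genes tested had a lower mean. The call held when any prep was left out, with means between 0.92 and 1.31. The median of the 9 germline markers was 0.80, 1.13, 1.23 and 1.90 on the same preps, so prep 4 was highest and prep 1 lowest in both. Preps 2 and 3 of ptr-2 stood in the opposite order to those of the median, but the single markers differed among themselves. The order of preps in ptr-2 was also that of pgl-3, rme-2, cpg-1 and him-3. It was not that of glh-1, pgl-1, gld-1, oma-1 and htp-3. The part of germline RNA in the ratio of ptr-2 was not tested.

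The other 7 PTR genes were not called. The log2 ratio of ptr-18, which keeps neural progenitors quiescent in starved larvae, was 0.25, 0.63, -0.07 and 0.06 on preps 1 to 4, a mean of 0.22 with a 95% interval from -0.15 to 0.58 (limma adjusted p = 0.29). Values on either side of 0 were also found for ptr-24, with -0.41, -0.13, 0.27 and 0.03 and an interval of the mean from -0.42 to 0.30 (adjusted p = 0.78). The mean of ptr-14 was -0.41 ± 0.36 with prep 1 alone above 0 at 0.07 (adjusted p = 0.080), and without prep 1 it was called at -0.57 (adjusted p = 0.028).

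All 4 ratios of ptr-9 were below 0, between -0.37 and -0.13, with a mean of -0.29 ± 0.10 (limma adjusted p = 0.11). Those of ptr-17 were also all below 0, but prep 2 at -0.87 lay far from the other preps, which were between -0.21 and -0.06 (adjusted p = 0.16). For ptr-13, prep 2 gave no value, and -1.02 on prep 1 stood against 0.06 on prep 3 and 0.03 on prep 4 (n = 3 preps in limma's fit, mean -0.31 ± 0.61, adjusted p = 0.34). The family member ptr-19 was the only gene with more than 1 probe. Its probes differed by 0.20 on prep 4 and by 1.18 on prep 2, where they read -0.90 and 0.28, and they lay on opposite sides of 0 on preps 1 to 3. The average of the probes, -0.35 ± 0.28 (limma adjusted p = 0.10), therefore rests on probes that disagree.

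Dispatched-like proteins were represented by che-14, which acts in apical secretion of epidermis and glia, and by ptd-2. The log2 ratio of che-14 was -1.56, -1.33, -0.58 and -0.98 on preps 1 to 4. Its mean was -1.11 ± 0.43, 2.16-fold lower (limma adjusted p = 0.0019), which placed it among the lowest genes of the group. In ptd-2 the preps went both ways, with 0.75, 0.06, -0.22 and -0.37, and the mean was 0.06 with a 95% interval from -0.40 to 0.51 (adjusted p = 0.84). No value of ptd-2 overlapped with those of che-14.

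The Patched gene ptc-1, which is needed for the division of germ cells into separate cells, was not called. Its log2 ratio was -0.30, -0.23, 0.27 and 0.90 on preps 1 to 4, a mean of 0.16 ± 0.56 (limma adjusted p = 0.57). Preps 1 and 2 were thus below 0 and preps 3 and 4 above it, and without prep 4 the mean was -0.09. The germline markers, unlike ptc-1, were positive in median on every prep. Their medians, 0.80, 1.13, 1.23 and 1.90 on preps 1 to 4, had the same order of preps as ptc-1. The medians of the muscle markers, -1.32, -0.38, -0.15 and -0.02, had this order too, so it is not particular to the germline markers. Not every germline marker had it, as glh-1 was at 1.59, 1.13, 2.04 and 1.81. The part of germline RNA in the ratio of ptc-1 was not tested. A probe annotated to ptc-1 and ptc-2 together was left out by the rule.

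NCR-1 and NCR-2 are the worm's NPC1 proteins, and animals that lack both enter the dauer larval stage without the usual stress. The log2 ratio of ncr-1 was -1.93, -0.64, -0.38 and -0.36 on preps 1 to 4. All preps were below 0, and the mean was -0.83 ± 0.74 (limma adjusted p = 0.031), but prep 1 carried much of it. Without prep 1 the mean was -0.46 (adjusted p = 0.060), and without prep 2 it was -0.89 (adjusted p = 0.053), so the call was lost in both cases. For ncr-2, prep 1 was at 0.11 and the other preps at -0.44, -0.53 and -0.88, with a mean of -0.43 ± 0.41 (adjusted p = 0.082). Without prep 1, ncr-2 was called at -0.61 (adjusted p = 0.023). Prep 1 was therefore the lowest array for ncr-1 and the highest for ncr-2.

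The SCAP homologue scp-1 had log2 ratios of -0.70, 0.01, -0.12 and 0.43 on preps 1 to 4. Its mean was -0.10 with a 95% interval from -0.53 to 0.34 (limma adjusted p = 0.71), and its mean was 0.10 without prep 1.

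Within the order of means, neighbouring genes mostly had overlapping values. Sorting by these means places genes with close values side by side, and no test between genes was made. Of the 27 neighbouring pairs, 25 had overlapping values, and only the steps from ptr-4 to ptr-23 and from ptr-18 to ptr-2 did not. Across the 27 genes with 4 values, Pearson's r between arrays ran from 0.57, for preps 1 and 4, to 0.85, for preps 3 and 4, as a description of genes that share 1 reference RNA. The SD over preps had a median of 0.34 for these genes and of 0.31 for all genes with 4 values. The lowest value of a gene was on prep 1 for 10 genes, on prep 4 for 10, on prep 2 for 4 and on prep 3 for 3. The highest value was most often on prep 3, for 11 genes, which is also the array whose ratios had the smallest SD over all probes, 0.756 against 0.836 to 0.921 on the others.

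**Figure D2:**
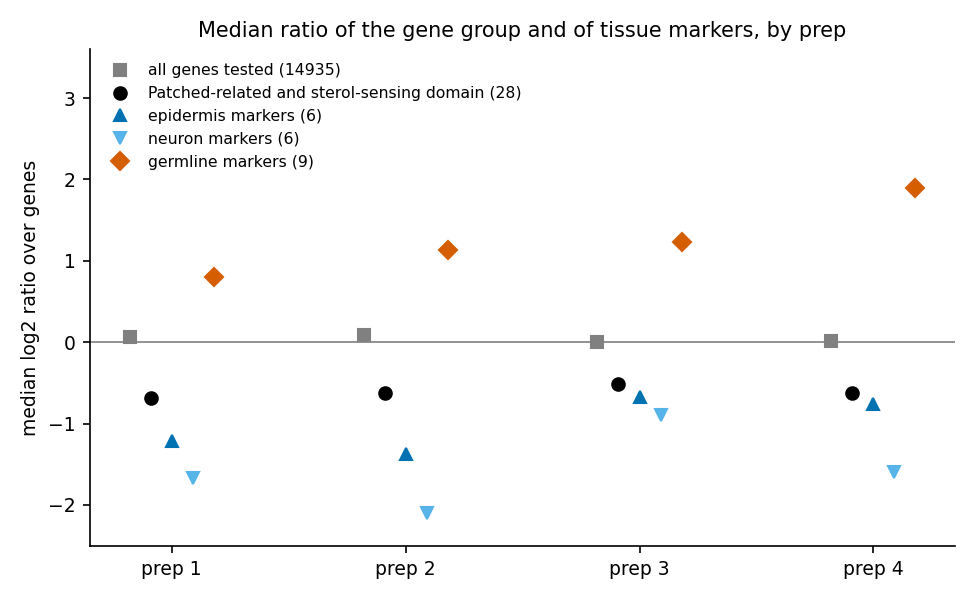
Median log2 ratio on each adult array over the 28 Patched-related and sterol-sensing domain genes, over all 14935 genes tested, and over the epidermal, neuronal and germline markers. The 28 genes lie between -0.68 and -0.51, all genes between 0.00 and 0.09, and the germline markers between 0.80 and 1.90.

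The genes are spread over all chromosomes, and 5 of them are X-linked: ncr-1, ptr-4, ptr-24, daf-6 and ptr-5. Of these 4 were called negative, all but ptr-24, while 31.2% of all X-linked genes tested were. The 23 genes on autosomes included 12 negative calls (52.2%, where 19.5% of all autosomal genes tested were called negative) and 1 positive call. A mean log2 ratio of -1 or lower was reached by 6 of the 28 genes, ptr-4, ptr-23, ptr-1, che-14, ptr-8 and ptr-15, while 8.05% of all genes tested were called negative with such a mean.

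The hedgehog-related secreted proteins are the candidate partners of the Patched-related proteins. Of 47 such genes with a value, 29 were called negative (61.7%, against 21.2% of all genes tested). Positive calls numbered 2 (4.26%, against 23.2%), and the median of the mean log2 ratios was -0.71. Their means reached from -3.19 for wrt-1 (-2.73, -3.10, -3.74 and -3.20 on preps 1 to 4) to 0.95 for grd-3, a wider range than the -2.20 to 1.16 of the Patched-related and sterol-sensing domain genes. The next lowest mean was that of grl-20, at -3.16 ± 0.37 (limma adjusted p = 3.2e-05). The median of the ligand genes was lowest on prep 4, at -0.99, and highest on prep 3, at -0.58. The positive calls among them were grd-3 and grd-5 (0.86 ± 0.29, limma adjusted p = 0.0032), which were picked for naming after their values were seen.

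Of the 26 moulting genes outside the group, 14 were called negative by limma (53.8%, against 21.2% of all genes tested). None was called positive, where 23.2% of all genes tested were. The median of the mean log2 ratios was -0.70. The apical matrix gene noah-2 had -3.27, -2.70, -2.39 and -2.98 on preps 1 to 4, lower on each array than ptr-4. Its relative noah-1 had -2.85, -2.59, -2.40 and -2.93. The nuclear receptor gene nhr-25 had -1.17 ± 0.43 (adjusted p = 0.0016), while nhr-23, which also drives moulting gene expression, had 0.33 ± 0.28 and was not called (adjusted p = 0.11). These receptors were picked for naming after their values were seen.

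**Figure D3:**
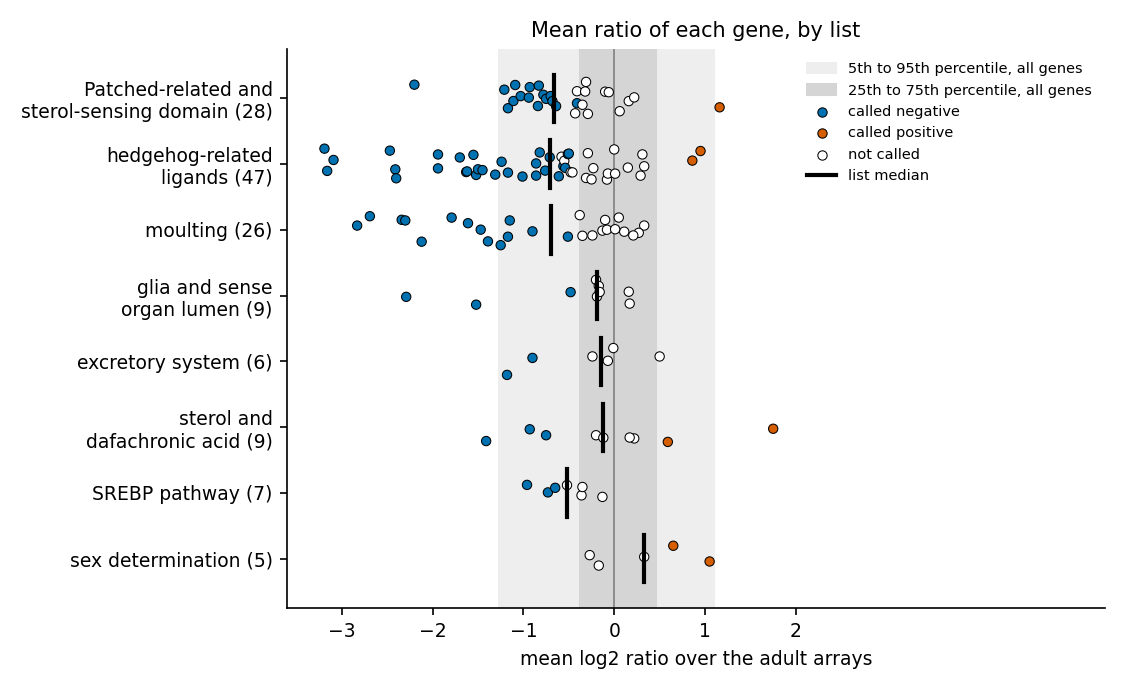
Mean log2 ratio over the adult arrays for each gene of 8 lists, with the number of genes tested in brackets, coloured by limma's call; the black line is the list's median and the grey bands span the 5th to 95th and the 25th to 75th percentile of all genes tested (-1.27 to 1.10 and -0.38 to 0.46). The Patched-related and sterol-sensing domain genes, the hedgehog-related ligands and the moulting genes have medians of -0.66, -0.71 and -0.70, and the other lists lie closer to 0.

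Lists for glia and for the excretory system were counted because daf-6, ptr-10 and che-14 act in or mark glia and other tubes. Among 9 genes for glia and the lumen of sense organs, 3 were called negative (33.3%, against 21.2% of all genes tested) and none positive by limma. The genes called were vap-1, which encodes a protein secreted by the glia of the amphid sense organ, at -2.29 ± 0.14 (limma adjusted p = 3.4e-05), dex-1, which anchors dendrite tips, at -1.52 ± 0.37, and kcc-3, a glial ion transporter gene, at -0.48 ± 0.25. Of 6 excretory system genes 2 were called negative (33.3%), exc-7 at -1.18 ± 0.32 and exc-5 at -0.90 ± 0.22, both needed for the shape of the excretory canal. The medians of these lists were -0.19 and -0.15, and with so few genes their shares are not read as a difference from all genes. Some names in this and the following paragraphs, such as kcc-3, were added after their values were seen, so that small counts of calls are named in full.

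In the list for sterols and dafachronic acids, the steroid hormones of the worm, 3 of 9 genes were called negative (33.3%) and 2 positive (22.2%), with a median of -0.12. The positive share is near the 23.2% of all genes tested. With so few genes the negative share is not read as a difference from the 21.2% of all genes tested, so only the single genes are described. The gene daf-36, whose product opens the synthesis of dafachronic acids from cholesterol, had log2 ratios of 2.06, 1.75, 1.70 and 1.5 on preps 1 to 4 (mean 1.75 ± 0.23, 3.38-fold higher, limma adjusted p = 8.9e-05). The dehydrogenase gene dhs-16 of the same pathway had -2.32, -1.71, -0.61 and -1.0 (mean -1.41 ± 0.76, adjusted p = 0.0035). Their values thus lay on opposite sides of 0 on every array. The receptor gene daf-12 had -0.93 ± 0.24 and its corepressor gene din-1 had -0.75 ± 0.39, while nhr-8, a receptor gene of cholesterol balance, had 0.59 ± 0.33 (adjusted p = 0.0017, 0.010 and 0.020).

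Among 7 genes of the SREBP pathway, to which scp-1 belongs as the SCAP homologue, 3 were called negative by limma (42.9%, against 21.2% of all genes tested). None was called positive, and the median was -0.52. With so few genes this share is not read as a difference from all genes. The desaturase gene fat-6 had -0.96 ± 0.26 (adjusted p = 0.0016), the fatty acid synthase gene fasn-1 had -0.73 ± 0.66 (adjusted p = 0.037), and the desaturase gene fat-5 had -0.65 ± 0.54 (adjusted p = 0.034). The SREBP gene itself, sbp-1, had -0.13 ± 0.29 and was not called (adjusted p = 0.52). Prep 1 had a list median of -1.19 and prep 4 of 0.14, and leaving out prep 1 or prep 2 left 1 of the 3 calls. For scp-1 prep 1 was likewise the lowest array and prep 4 the highest. The same held for ptc-1 and for the muscle markers, whose medians went from -1.32 on prep 1 to -0.02 on prep 4. These end preps are therefore not particular to the SREBP pathway.

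The sex determination pathway ends in TRA-1, the worm's relative of the Hedgehog pathway's Gli factors, and 5 of its 7 listed genes had a value. Of these fem-3 at 1.05 ± 0.25 (limma adjusted p = 0.0010) and fem-2 at 0.65 ± 0.17 (adjusted p = 0.0070), both needed for male development, were called positive, and there was no negative call. The genes not called were fem-1, tra-3 and her-1, with means between -0.27 and 0.33. Among all genes tested, 23.2% were called positive and 21.2% negative. With so few genes, the counts of calls in this list are not read as a difference from all genes.

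**Figure D4:**
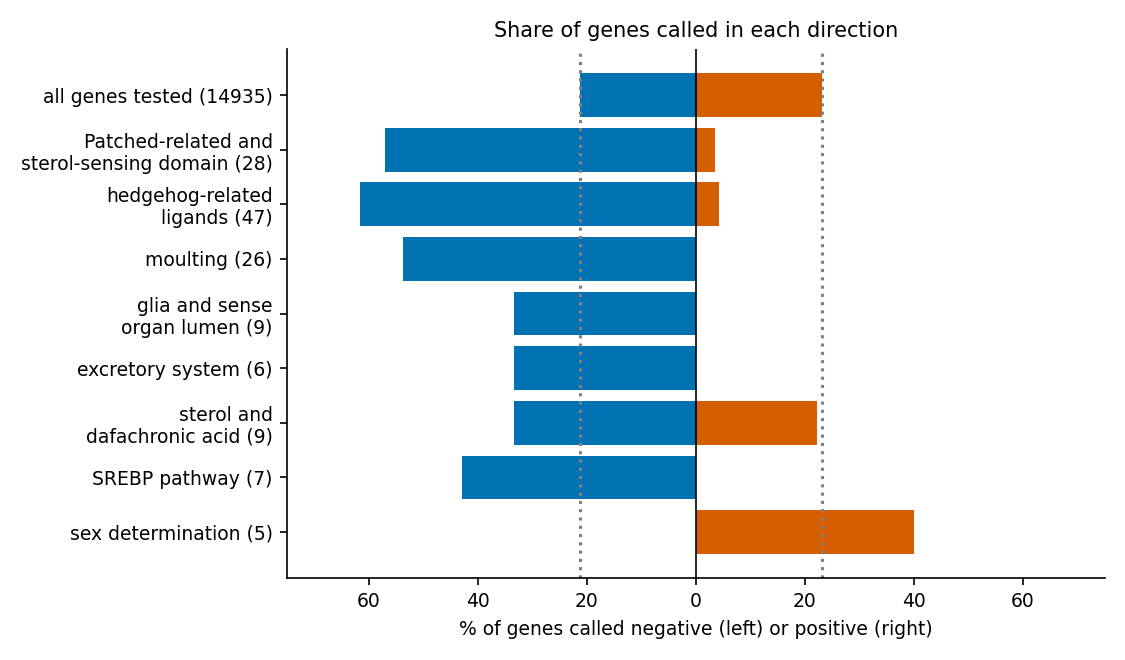
Percentage of genes that limma called negative (left) or positive (right) in each list, with the number of genes tested in brackets; the dotted lines mark the shares among all genes tested, 21.2% and 23.2%. The Patched-related and sterol-sensing domain genes stand at 57.1% negative and 3.57% positive, the hedgehog-related ligands at 61.7% and 4.26%, and the lists of under 10 genes rest on few calls.

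Epidermal and neuronal markers had lower ratios beside these genes. The epidermal markers ranged from -3.03 for the larval collagen gene dpy-7 to -0.19 for lin-26 in mean log2 ratio, with array medians from -1.37 to -0.67, and the neuronal markers had array medians from -2.10 to -0.90. Their part in the lower ratios of the Patched-related genes was not tested.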

How the data were processed

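The deposited values are log2 ratios, a single value for each probe on each array. The log base was read from the authors' values: 99.934% to 99.995% of an array's spots became a ratio of 3 decimals, to within 0.00001, when 2 was raised to them. Array medians were -0.0043 to 0.0496. Scanning, dyes, background, spot filters, normalization and centring were steps not given in the sources used here, and signal intensities were not used here, so spots close to background could not be set apart.

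Of 21632 probes, GEO's platform annotation gave 16450 a single symbol, 247 several and 4935 none. Symbols were updated to RefSeq genes of WBcel235 by gene ID for 16360 probes and by accession for 8, and 82 kept the annotation's symbol. The names of 5 further RefSeq genes fit the rule (ptc-2, ptc-3, ptr-20, ptr-21 and ptr-22), and they had no probe of a single symbol. Probes of a gene were averaged on each array. The fit was made in R 4.3.3 with limma 3.58.1 (intercept, lmFit, eBayes) for genes measured on 3 or more arrays, two-sided against 0, with Benjamini-Hochberg adjustment over all genes tested. All 28 genes passed this filter. The number of arrays limits the precision, and the reference RNA's own spread is not in the test. The fit was tested on simulated data.

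Members and lists were chosen with earlier results of these data known. Every member is named, with the called genes of largest mean in size from each gene list other than the markers. Some further genes were named after their values were seen. Alternatives were centring, scaling, other minimum numbers of arrays, another summary of probes, a robust prior, array weights, the title date as a random block, leaving out a prep and stricter call rules. For the block, limma's function returned no correlation for this layout, so its steps were run gene by gene with statmod (consensus correlation 0.0118). A reference genome and protein sequences were not used here.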

Additional observations from a re-analysis of the deposited data

Results flagged for a closer look

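Among 35 sets of 4 values, those of the genes and the array medians of the lists, 1 had a single prep far from the others, where chance gives about 1 in 20. The log2 ratio of ptr-16 was -1.29 on prep 1, and the other preps lay between -0.65 and -0.57.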

How the results depend on the processing

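Centring or scaling the arrays, other minimum numbers of arrays, other summaries of probes, a random block for the title date, array weights and a robust prior changed no call of the 28 genes (9 fits, with ptr-13 left out where 4 arrays were required). Several of these fits could move the calls little. Only 1 of the genes has several probes, and 27 have a value on 4 arrays. The array medians were near 0 before centring, and the correlation within a title date was 0.0118. Their unchanged calls are thus a weak check. Leaving out a prep gave 14 to 16 negative calls and 1 positive call. Of the 16 genes called negative, 14 kept the call in every one of the 13 fits, the others being ncr-1 and ptr-11. Of the genes not called, 4 changed the sign of their mean: without prep 1 ptd-2 (range -0.17 to 0.20 over the preps left out), ptr-24 (-0.17 to 0.06) and scp-1 (-0.27 to 0.10), and without prep 4 ptc-1 (-0.09 to 0.31). Over these fits the SREBP pathway had 1 to 4 calls.

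A minimum mean of log2 1 in size beside the test, which takes a subset by construction, left 6 negative calls among the 28 genes and 2132 calls in either direction among all genes. It left 19 among the hedgehog-related ligands, 2 in the sterol list, 0 in the SREBP pathway, 1 in sex determination and 1 in the excretory system. A rule with no test, a median past log2 1 in size and a single sign on all arrays, gave 5, 2082, 19, 2, 1, 0 and 1 in the same order. No paired analysis was possible because the arrays form 1 group. Without intensities it is unknown which ratios are drawn towards 0 by background.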
